A study of Mus musculus with 15 samples.

Results

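The histone genes measured here were 72 genes, with 96 transcripts, out of 16116 genes with 45788 transcripts in the deposited tables. They were taken by symbol, as every gene whose name starts with Hist1h to Hist4h, H2af, H3f3 or H1f. This rule uses no measured value, but it was set with earlier results of these data known. Of these, 59 were cluster genes (symbols that start with Hist: 5 of type H1, 15 of H2a, 16 of H2b, 11 of H3 and 12 of H4) and 13 were variant genes. The variant symbols included the processed pseudogenes H3f3a-ps1 and H3f3a-ps2 and the antisense gene H3f3aos, and the cluster genes included Hist1h2aj, Hist1h2al and Hist3h2bb-ps, which GENCODE M21 annotates as pseudogenes. All 3 tables listed 68 of the 72 genes. The other 4 were in only 2 tables each: Hist1h2aj was not listed in MUT against WT, and Hist1h2ad, Hist1h2af and Hist4h4 were not listed in MUT against HET.

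The 15 bulk RNA samples were retinas of postnatal day 2 mice of the CD-1 strain. MUT retinas were Chx10Cre;Neurog2CKO/CKO, with both copies of Neurog2 floxed and a Cre driver that acts in retinal progenitors. HET retinas were Chx10Cre;Neurog2CKO/+, with 1 floxed copy and the same Cre. WT retinas were Neurog2CKO/CKO without Cre, so that Cre as well as the loss of Neurog2 separates MUT and HET from WT. The labels give 5 samples in each group and do not say whether each came from its own animal or from pooled animals. Neurog2 is a proneural transcription factor of retinal progenitor cells.

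Cluster histone genes encode the bulk of the core histones H2A, H2B, H3 and H4 and the linker H1 that package newly copied DNA. They lack introns as a rule, are transcribed in S phase, and their mRNAs typically end in a conserved stem-loop instead of a poly(A) tail. The stem-loop is bound by SLBP and cut by a complex with the U7 small nuclear RNA. Variant histones such as H3.3 (H3f3a, H3f3b) and H2A.Z (H2afz) are made throughout the cell cycle from ordinary polyadenylated mRNAs. Some cluster genes also give polyadenylated mRNAs, in differentiated cells above all. The retina at this age holds dividing progenitors beside newborn neurons.

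The 3′ stem-loop is printed here because it is the feature that sets most cluster mRNAs apart from other mRNAs. It was read from GENCODE M21 transcripts (GRCm38, the assembly also called mm10) after the stop codon, as a 16-base pattern on the transcript strand alone: GG, any 3 bases, TTT, any 2 bases, A, any 3 bases and CC, where the second run of 3 free bases is the reverse complement of the first. Capitals mark the stem-loop. The first 4 genes below had lower transcripts in MUT at the authors' q threshold, the next 3 were abundant cluster genes that differed little, and H2afx was the 1 variant gene in which it was found.
Hist1h1d: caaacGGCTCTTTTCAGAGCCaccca
Hist1h3f: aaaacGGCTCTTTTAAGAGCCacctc
Hist1h4c: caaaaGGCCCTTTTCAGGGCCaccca
Hist1h4f: tcaaaGGCCCTTTTCAGGGCCaccca
Hist1h1c: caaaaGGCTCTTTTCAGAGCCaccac
Hist3h2ba: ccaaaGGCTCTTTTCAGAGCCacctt
Hist1h4i: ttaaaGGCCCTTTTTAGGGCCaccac
H2afx: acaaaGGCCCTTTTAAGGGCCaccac

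These lie at chr13:23555782-23555807 (plus strand, Hist1h1d), chr13:23544927-23544952 (plus, Hist1h3f), chr13:23698084-23698109 (minus, Hist1h4c), chr13:23551286-23551311 (minus, Hist1h4f) and chr13:23739507-23739532 (plus, Hist1h1c). The remaining sites are at chr11:58949344-58949369 (plus, Hist3h2ba), chr13:22040961-22040986 (minus, Hist1h4i) and chr9:44335235-44335260 (plus, H2afx). A stem-loop of this pattern was found in 37 of 56 coding cluster transcripts. In 13 of the others the annotated transcript ended within 1 base after the stop codon, so the region was not annotated. Only 19 of 27006 other protein-coding transcripts matched (0.0704%). The form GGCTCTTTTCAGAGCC was in 21 cluster transcripts, none of type H4. The form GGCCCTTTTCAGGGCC was in 6 transcripts, all of type H4. The stem letters did not separate genes that were lower in MUT from those that were not: Hist1h1d and Hist1h1c share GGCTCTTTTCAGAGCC.

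The targeted gene was examined first. The authors' deposited table listed Neurog2 at 10.6 FPKM in MUT retinas and 59.5 FPKM in WT retinas, a log2 fold change of -2.49 ± 0.32 (Cuffdiff, q = 0.0388). FPKM is fragments scaled to transcript length and to library size, given by the authors as 1 pooled value for each group, so neither the spread between samples nor their depth can be shown. Each ± after a fold change is the standard error implied by the test statistic in that table. Genes that mark retina were present in both groups: the photoreceptor factor Crx was at 204 FPKM in MUT and 217 FPKM in WT, and the eye-field factor Pax6 at 391 FPKM in MUT and 384 FPKM in WT. Y-linked Kdm5d was at 0.00117 FPKM in MUT and 3.73 FPKM in WT, while Xist was at 135 FPKM in MUT and 98.8 FPKM in WT, so sex-linked transcripts differed between the groups, and the part of sex in the histone results was not tested.

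Cluster histone mRNAs were lower in MUT than in WT retinas, while variant histone mRNAs were at about the same level. Of the 60 cluster transcripts in the table of MUT against WT, 12 fell at the authors' q-value under 0.05 (20%), against 39 of all 44526 transcripts (0.0876%). None of the 60 was higher at that threshold (0.027% of all transcripts were). At an unadjusted p under 0.05, 35 cluster transcripts were lower (58.3%) and 0 higher, against 0.483% lower and 0.368% higher among all transcripts. No variant transcript of 35 was called by Cuffdiff in either direction. At the unadjusted p, 0 of them were lower and 1 was higher, H3f3a-ps2. All 12 called transcripts carry the smallest p-value that the table holds, 5e-05, and q = 0.0388. Their deposited test statistics were only 2.01 to 2.93 in size. Read as a normal deviate and adjusted over the table, a choice made after seeing the data, that statistic called 0 histone transcripts, while unadjusted it took 17 below 0.05. The calls therefore rest on the p-values that Cuffdiff gave.

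Of the 5 type H1 linker histone transcripts, 4 fell, and the exception was Hist1h1c. Hist1h1d was at 0.582 FPKM in MUT and 4.15 FPKM in WT in the authors' deposited table (log2 fold change -2.83 ± 0.97). Hist1h1a was at 0.641 FPKM in MUT and 2.81 FPKM in WT in the authors' deposited table (-2.13 ± 1.06). Hist1h1b was at 0.706 FPKM in MUT and 2.96 FPKM in WT there (-2.07 ± 0.94 in the authors' deposited table). These 3 linker genes were below 1 FPKM in MUT. Hist1h1e was at 1.69 FPKM in MUT and 6.48 FPKM in WT in the authors' deposited table (-1.93 ± 0.76). Hist1h1c, the most abundant cluster H1 gene, was at 40.0 FPKM in MUT and 42.0 FPKM in WT in the authors' deposited table (-0.07, p = 0.60485). The H1 genes thus covered both behaviours within 1 type.

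Type H4 genes, which encode 1 of the core histones paired with H3, had 6 of 12 transcripts called. Hist1h4f was at 0.656 FPKM in MUT and 5.17 FPKM in WT in the authors' deposited table (-2.98 ± 1.14). Hist1h4c was at 0.841 FPKM in MUT and 6.01 FPKM in WT in the authors' deposited table (-2.84 ± 1.13). Hist1h4a was at 0.556 FPKM in MUT and 3.38 FPKM in WT in the authors' deposited table (-2.60 ± 1.11). These 3 H4 genes, too, were below 1 FPKM in MUT. Hist1h4h was at 1.47 FPKM in MUT and 7.18 FPKM in WT in the authors' deposited table (-2.29 ± 0.94). Hist1h4d, the most abundant of the 6, was at 3.03 FPKM in MUT and 12.2 FPKM in WT in the authors' deposited table (-2.01 ± 0.86). Hist4h4, which lies outside the clusters on chromosome 6, was the least abundant, at 0.107 FPKM in MUT and 0.585 FPKM in WT (-2.46 ± 0.94 in the authors' deposited table). Hist1h4i did not follow, with 9.51 FPKM in MUT and 9.21 FPKM in WT in the authors' deposited table (0.05, p = 0.8542). Many H4 genes share sequence with other histone genes, which limits how well their reads can be assigned, but Hist4h4 shared 0% of its 50-base windows and Hist2h4 1.01%.

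Among type H3 genes, 2 of 11 transcripts were called. Hist1h3f was at 0.206 FPKM in MUT and 1.71 FPKM in WT in the authors' deposited table, the largest fold change among the 12 called transcripts (-3.06 ± 1.25). Hist1h3e was at 0.76 FPKM in MUT and 2.98 FPKM in WT in the authors' deposited table (-1.97 ± 0.93). The most abundant H3 genes gave smaller differences. Hist1h3c was at 2.44 FPKM in MUT and 5.40 FPKM in WT (log2 ratio of FPKM + 0.1, -1.12), and Hist1h3a was at 2.51 FPKM in MUT and 3.81 FPKM in WT (-0.58). At the unadjusted p, 7 of 11 H3 transcripts were lower.

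No H2a or H2b transcript was called, although most were lower at the level of values. At the unadjusted p, 4 of 14 H2a and 10 of 18 H2b transcripts were lower in MUT and none was higher. The 3 most abundant H2a genes were close in both groups. Hist3h2a was at 18.3 FPKM in MUT and 19.3 FPKM in WT, the annotated pseudogene Hist1h2al at 7.10 FPKM in MUT and 8.57 FPKM in WT, and Hist1h2ag at 3.22 FPKM in MUT and 4.22 FPKM in WT. The same held for the 3 leading H2b genes. Hist3h2ba, the most abundant cluster gene, was at 110 FPKM in MUT and 117 FPKM in WT, Hist2h2be at 10.8 FPKM in MUT and 10.1 FPKM in WT, and Hist1h2bc at 6.71 FPKM in MUT and 5.39 FPKM in WT. Lower-level H2b genes had larger differences. An example picked after its values were seen is Hist1h2bb, at 0.318 FPKM in MUT and 2.80 FPKM in WT in the authors' deposited table (Cuffdiff, unadjusted p = 0.00035). Whether the types differ from each other was not tested.

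**Figure D1:**
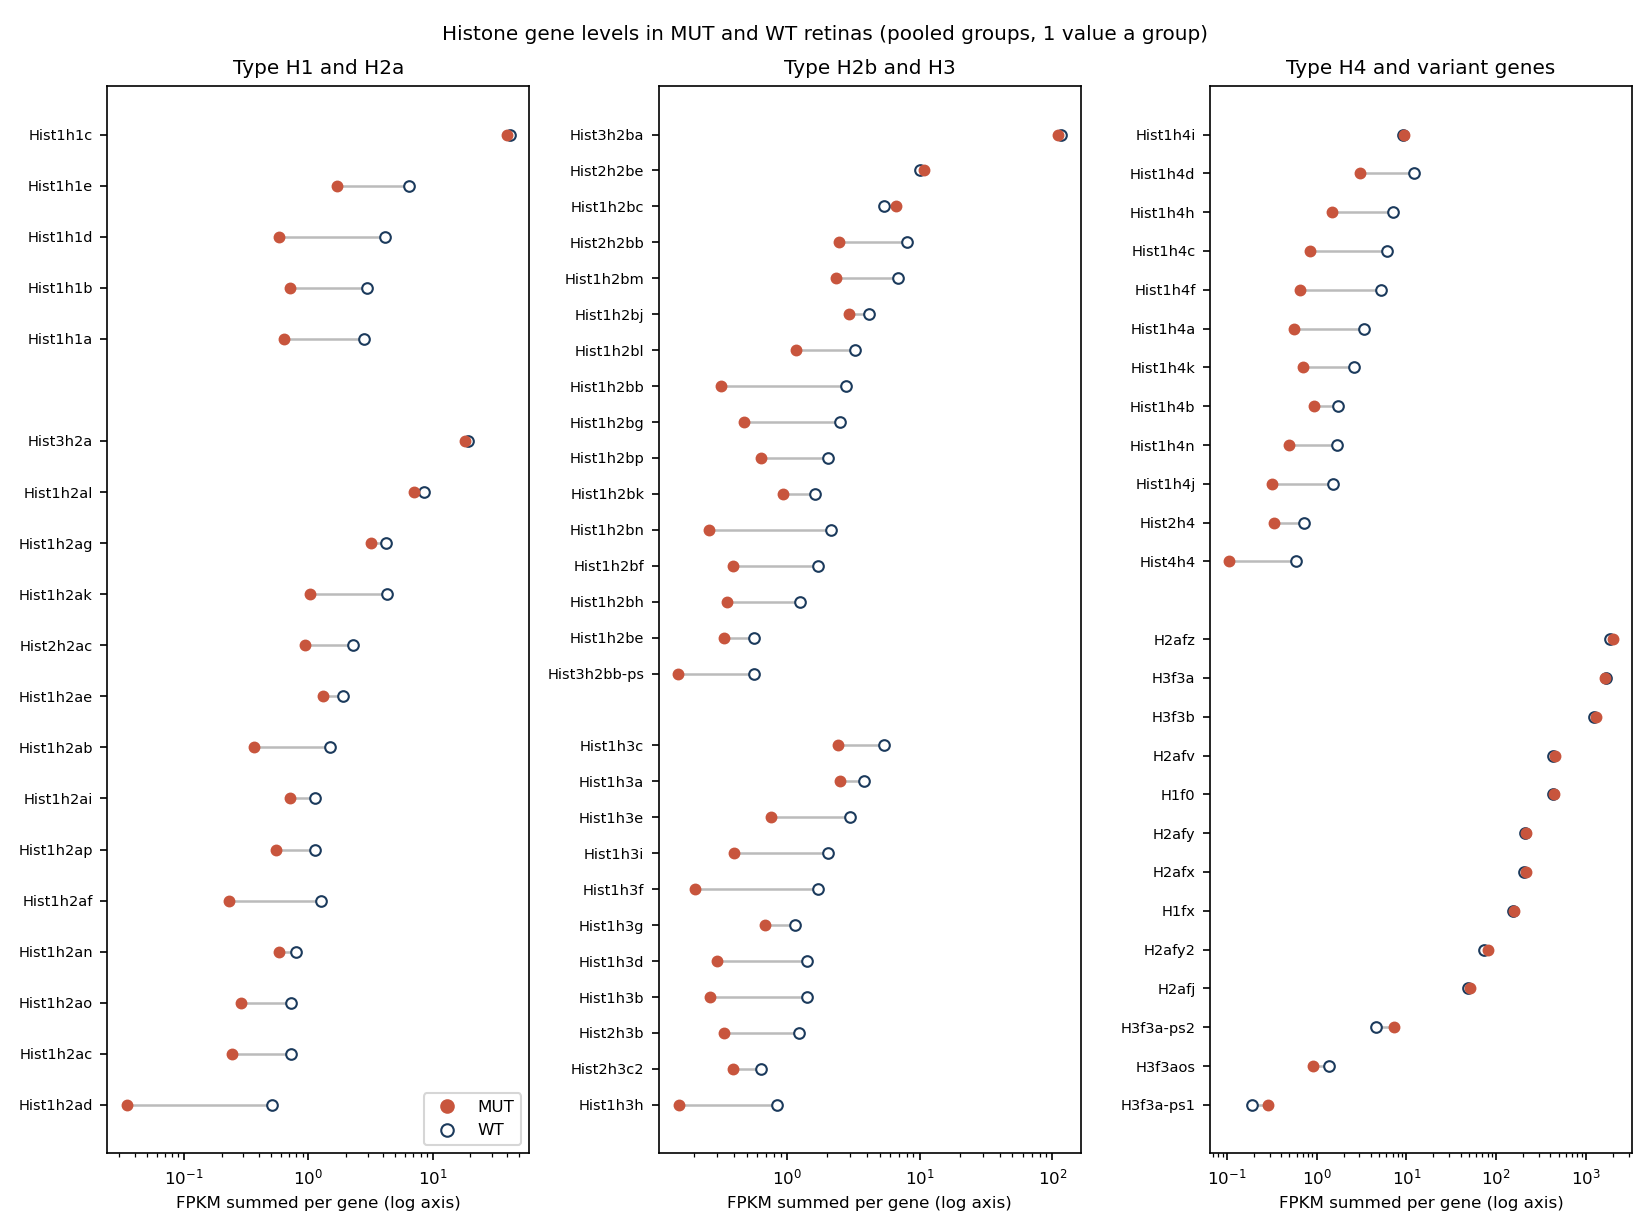
FPKM summed per gene in MUT (filled) and WT (open) retinas for each histone gene in that table, on log axes, grouped by type, 1 pooled value a group. Most cluster genes lie lower in MUT, while Hist3h2ba (110 in MUT, 117 in WT) and the coding variant genes such as H2afz (1980 in MUT, 1850 in WT) nearly coincide.

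Over the 52 cluster genes with a mean of 0.5 FPKM or more, the median log2 ratio of (FPKM + 0.1) in MUT against WT was -1.59, beside 0.01 over all 14665 genes that passed the same filter. Of the 52 genes, 49 lay below 0 and 33 at -1 or lower, against 1.33% of all genes at -1 or lower. By type, the medians were -1.92 for H1, -0.75 for H2a, -1.52 for H2b, -1.72 for H3 and -1.97 for H4. Cluster genes were also split by level, taken as the mean of the MUT and WT values. The 9 cluster genes with a mean of 5 FPKM or more had a median of -0.08, with Hist1h4d and Hist2h2bb the exceptions at -1.97 and -1.66. The 43 cluster genes below that mean had a median of -1.75, and all 43 lay below 0. That mean holds the MUT value, so a lower MUT value itself moves a gene under the cut. Hist1h4c (0.841 FPKM in MUT, 6.01 FPKM in WT) and Hist1h4h (1.47 FPKM in MUT, 7.18 FPKM in WT) were among those moved. The split therefore cannot show whether the ratio depends on level. Protein-coding transcripts outside the histone family with a mean from 0.5 to under 10 FPKM had a median of 0.01. In short single-exon transcripts outside the family (1000 nt or less, 62 transcripts) the median was 0.25.

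Because a few genes held most of the cluster signal, the summed level moved less than the typical gene. All listed cluster genes summed to 247 FPKM in MUT and 352 FPKM in WT. Hist3h2ba, Hist1h1c and Hist3h2a alone gave 68.4% of that sum in MUT and 50.8% in WT. Without these 3, the sum was 77.9 FPKM in MUT and 173 FPKM in WT. Cluster genes made up 3.66% of all histone FPKM in MUT and 5.29% in WT, and the variant genes gave the rest.

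The 10 coding variant genes were high, and their levels in MUT and WT were close. H2afz, the H2A.Z gene, was the highest at 1980 FPKM in MUT and 1850 FPKM in WT. H3f3a and H3f3b, which both encode H3.3, were at 1620 FPKM in MUT and 1670 FPKM in WT and at 1280 FPKM in MUT and 1230 FPKM in WT. H2afv, another H2A.Z gene, was at 453 FPKM in MUT and 425 FPKM in WT, and H1f0, a linker of differentiating cells, at 440 FPKM in MUT and 423 FPKM in WT. These 5 genes ranked above every cluster gene, and none had a transcript at an unadjusted p under 0.05. H2afx, whose protein is phosphorylated at DNA breaks, was at 214 FPKM in MUT and 201 FPKM in WT. H2afy and H2afy2, the macroH2A genes, were at 216 FPKM in MUT and 210 FPKM in WT and at 80.1 FPKM in MUT and 73.5 FPKM in WT. H1fx was at 156 FPKM in MUT and 155 FPKM in WT, and H2afj at 50.7 FPKM in MUT and 48.7 FPKM in WT. The log2 ratios of these 10 genes lay between -0.04 and 0.12. The pseudogene H3f3a-ps2 was at 7.36 FPKM in MUT and 4.62 FPKM in WT in the authors' deposited table (0.67 ± 0.72, p = 0.04625). Its reads are hard to separate from those of its parent gene H3f3a. The antisense H3f3aos was at 0.92 FPKM in MUT and 1.37 FPKM in WT. Strandedness of the libraries was not stated, so its reads may not be separable from those of H3f3a where the genes overlap. The extent of that overlap was not measured.

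No transcript of any gene was called by Cuffdiff in HET against WT (0 of 44119, 0%, smallest q 0.0769). The smallest p was 5e-05, as in MUT against WT. It was held by 21 transcripts at q = 0.0769 here and by 51 at q = 0.0388 there. The same p thus gave a call in MUT against WT alone, and the 0 does not show that HET differed less from WT. At an unadjusted p under 0.05, Cuffdiff had 17 of 61 cluster transcripts lower (27.9%) and 0 higher, against 0.288% lower and 0.227% higher of all transcripts, and 0 of 35 variant transcripts in either direction. By type these 17 were 3 of 5 H1, 1 of 15 H2a, 5 of 18 H2b, 4 of 11 H3 and 4 of 12 H4 transcripts. The smallest p belonged to Hist1h3f, at 0.445 FPKM in HET and 1.70 FPKM in WT in the authors' deposited table (-1.93 ± 1.18, p = 0.0003, q = 0.405). Hist1h1b was at 1.07 FPKM in HET and 2.94 FPKM in WT in the authors' deposited table (-1.46 ± 1.04, p = 0.00245), and Hist1h1e at 3.15 FPKM in HET and 6.44 FPKM in WT (-1.03 ± 0.79, p = 0.0036). Hist1h4d was at 6.23 FPKM in HET and 12.1 FPKM in WT in the authors' deposited table (-0.96 ± 0.87, p = 0.01505). Each of these 4 had a lower value in HET than in WT, with an error of like size. Among genes that differed little in MUT, Hist3h2ba was at 124 FPKM in HET and 117 FPKM in WT, and Hist1h1c at 45.0 FPKM in HET and 41.8 FPKM in WT. Hist1h4i was at 6.46 FPKM in HET and 9.16 FPKM in WT, with an unadjusted p of 0.08055 by Cuffdiff. The annotated pseudogene Hist1h2al was at 17.6 FPKM in HET and 8.53 FPKM in WT, with an unadjusted p of 0.09605 by Cuffdiff.

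The median log2 ratio in HET against WT was -0.78 over 55 cluster genes, with 48 below 0, and 0.11 over 12 variant genes, beside 0.01 over all genes. Cluster genes at a mean of 5 FPKM or more over HET and WT had a median of -0.06 and those below it -0.81. This mean holds the HET value, so a lower HET value itself moves a gene under the cut. Hist1h1e, at 3.15 FPKM in HET and 6.44 FPKM in WT, was moved in this way. The split does not show that abundant cluster genes were unchanged. The types had medians of -1.01 for H1, -0.54 for H2a, -0.65 for H2b, -0.92 for H3 and -0.78 for H4. Cluster genes made up 4.41% of histone FPKM in HET and 5.30% in WT. Of the 52 cluster genes past the filter in MUT against WT, the HET level lay between the MUT and WT levels in 42, below both in 4 (Hist1h2ai, Hist1h3g, Hist1h4i and Hist2h2be) and above both in 6. This order is a description of pooled values and was not tested.

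MUT against HET compares retinas that all carry Cre. Here too no transcript was called by Cuffdiff (0 of 43959, 0%, smallest q 0.0762). That q belonged to the 27 transcripts at the smallest p, 5e-05, so even these could not be called. At an unadjusted p under 0.05, Cuffdiff had 23 of 57 cluster transcripts lower in MUT (40.4%) and 1 higher, against 0.471% lower and 0.344% higher of all transcripts, and 0 of 35 variant transcripts. Hist1h4c came closest to the threshold, at 0.839 FPKM in MUT and 3.37 FPKM in HET by the authors' deposited table (-2.0 ± 0.96, p = 5e-05, q = 0.0762). Hist1h1d followed with 0.582 FPKM in MUT and 1.77 FPKM in HET by the authors' deposited table (-1.61 ± 0.83, p = 0.0001, q = 0.13), and Hist1h4a with 0.554 FPKM in MUT and 1.92 FPKM in HET (-1.79 ± 0.95, p = 0.00025, q = 0.245). In this comparison 8 of 11 H4 transcripts were lower at the unadjusted p. The 1 higher transcript was also of type H4, Hist1h4i, at 9.49 FPKM in MUT and 6.48 FPKM in HET by the authors' deposited table (0.55 ± 0.46, p = 0.00845, q = 1). Hist1h2al was at 7.09 FPKM in MUT and 17.7 FPKM in HET by the authors' deposited table (-1.32 ± 0.63, p = 0.0258).

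The median log2 ratio in MUT against HET was -0.70 over 45 cluster genes, of which 40 lay below 0, and -0.04 over 12 variant genes, beside 0.00 over all genes. By type it was -0.86 for H1, -0.24 for H2a, -0.49 for H2b, -0.70 for H3 and -1.20 for H4. The 3 comparisons share groups in pairs, so their values are set side by side without a test of their likeness. Whether the difference of MUT from WT exceeds that of HET from WT is asked by MUT against HET itself, in which 0 histone transcripts passed the q threshold. The smallest p in that comparison, 5e-05, already carried q = 0.0762. No transcript at that p could pass, so this count cannot answer the question.

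**Figure D2:**
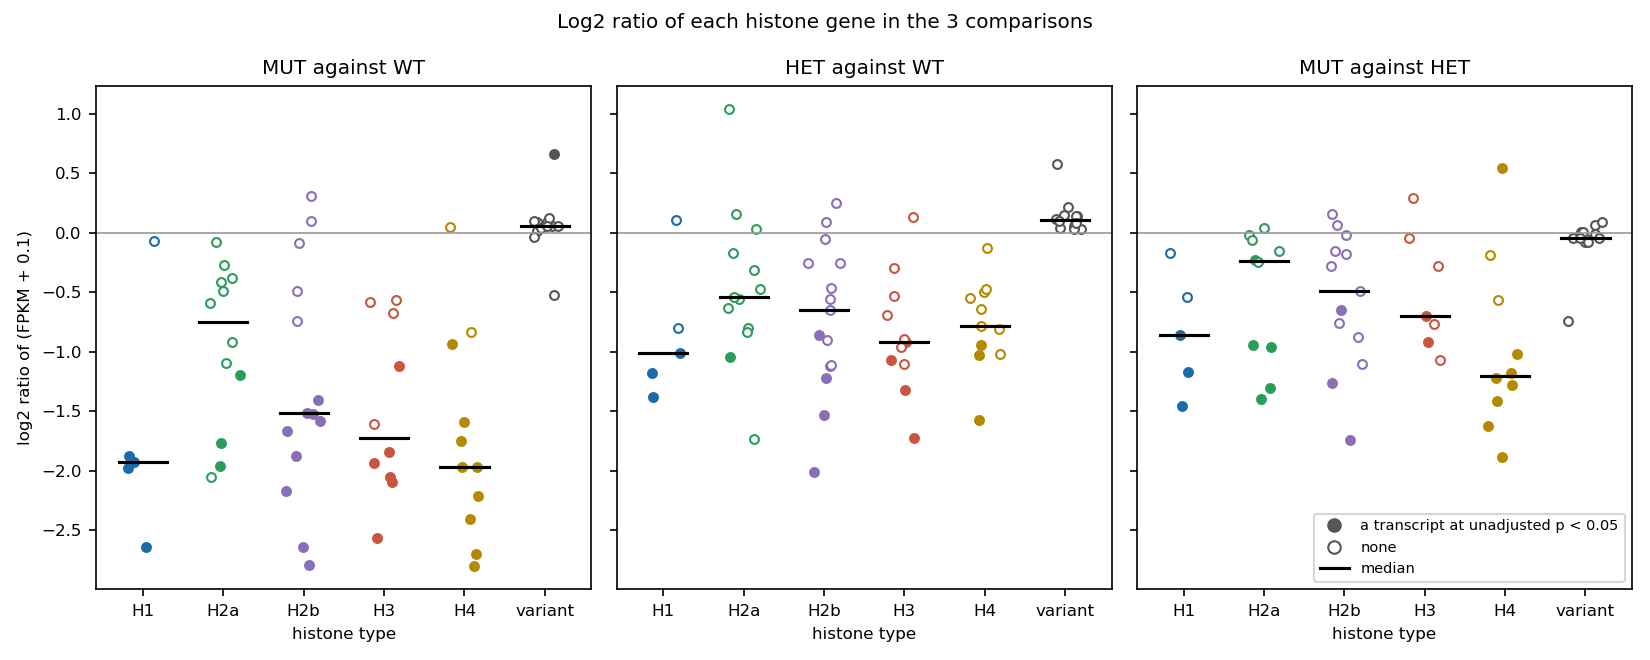
Log2 ratio of (FPKM + 0.1) for each histone gene with a mean of 0.5 FPKM or more, by type, in the 3 comparisons. Filled points have a transcript at an unadjusted Cuffdiff p under 0.05 and bars are medians. In MUT against WT the cluster types have medians from -1.97 (H4) to -0.75 (H2a), while the variants have 0.06.

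The annotated 3′ ends were then set beside the ratios. A poly(A) signal (AATAAA or ATTAAA on the transcript strand, in the last 50 bases) was in 12 of 56 coding cluster transcripts, 10 of them with a stem-loop as well, and in 60.9% of other protein-coding transcripts. In MUT against WT, the 25 cluster genes with a stem-loop only had a median log2 ratio of -1.77, and all 25 lay below 0. They summed to 26.2 FPKM in MUT and 79.5 FPKM in WT. The 8 cluster genes with both features had a median of -0.29 and summed to 182 FPKM in MUT and 199 FPKM in WT. Hist3h2ba, Hist1h1c, Hist3h2a and Hist1h4i, all close to 0, were among these 8. So, however, were genes with lower values, Hist1h4h at -2.21, Hist1h4j at -1.97 and Hist2h4 at -0.94. A poly(A) signal without a stem-loop was found in Hist2h2be, at 0.09, and in Hist1h4a, at -2.41. The 16 genes with neither had a median of -1.63, with Hist1h2bc, whose annotated transcript runs 742 bases past the stop codon in 2 exons, at 0.31. In most of these 16 the annotated transcript ended within 1 base after the stop codon. For them the class reflects missing annotation and not a known type of 3′ end.

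At the unadjusted p, 18 of 27 stem-loop-only transcripts and 4 of 10 with both features were lower in MUT against WT, beside 0.483% of all transcripts. In HET against WT the medians were -0.91 for stem-loop only and -0.26 for both features. In MUT against HET they were -0.76 for stem-loop only and -0.18 for both features. The classes also differ in level, so that level and 3′ end cannot be told apart in these values. The annotation used for the ends held the same transcript version as the authors' tables for 41 of 61 cluster transcripts, and it is not a measurement of where the mRNAs ended in these retinas. Hist1h2ae, counted with both features, has its poly(A) signal only in a longer M21 transcript that runs past the authors' locus.

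**Figure D3:**
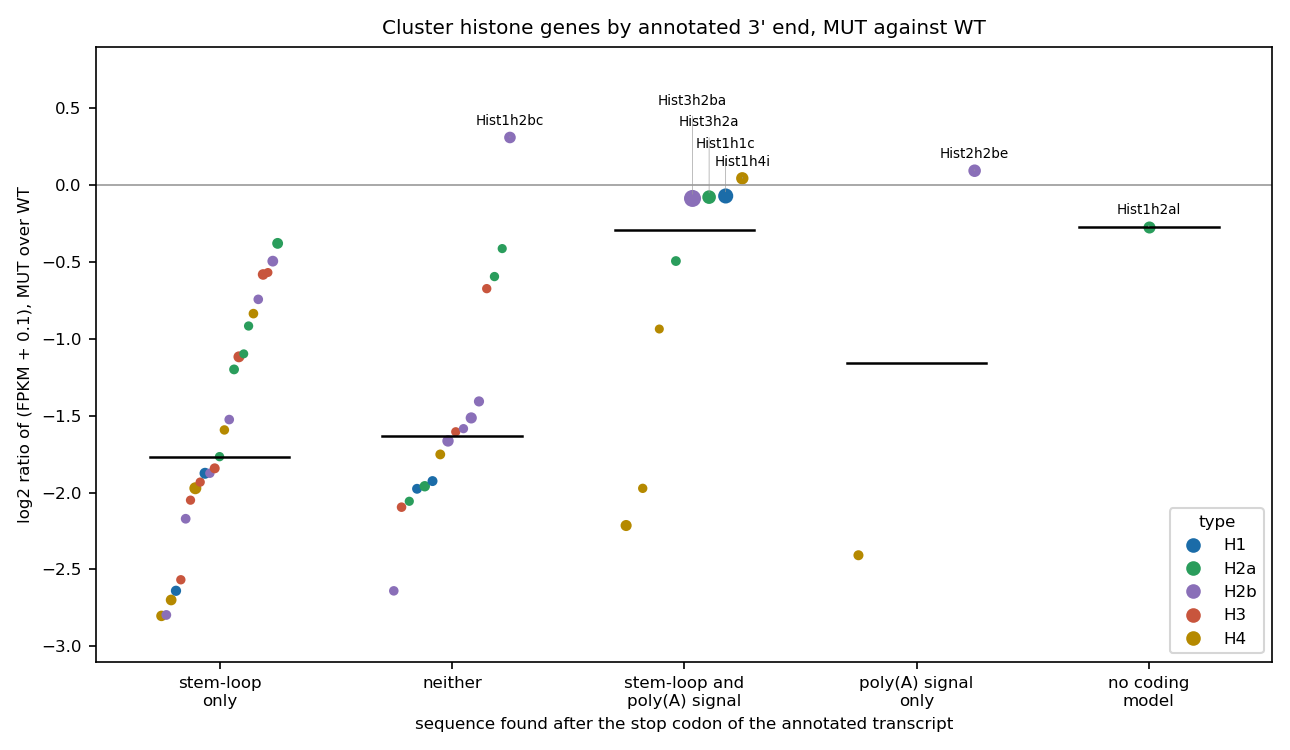
Log2 ratio of (FPKM + 0.1) in MUT over WT for each cluster gene with a mean of 0.5 FPKM or more, by what the annotated transcript holds after its stop codon. Colours give the type, larger points have a higher mean FPKM, and bars are medians. In most genes with neither feature the region after the stop codon was not annotated. The stem-loop-only genes all lie below 0 (median -1.77), and the genes with both features spread from -2.21 to 0.05.

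Many H2a and H2b genes stand head to head and share 1 promoter region, so the values of such neighbours were set side by side. RefSeq promoter windows (GRCm38.p6, 250 bases before to 50 after the start) matched 50 cluster genes and 9 variant genes. The CCAAT box, written CCAAT or ATTGG so as to cover both strands, was in 84.3% of 51 cluster windows, in 66.7% of 9 variant windows and in 37.4% of all 32851 windows. TATAAA, on the gene's strand, was in 47.1% of cluster windows, 11.1% of variant windows and 8.32% of all windows. In 6 pairs of an H2a and an H2b gene the windows overlapped by 252 to 279 bases. The pair with the largest difference was Hist1h2ae with Hist1h2bg. M21 annotates Hist1h2bg with a stem-loop only and Hist1h2ae with a stem-loop and a poly(A) signal. The M21 transcript of Hist1h2ae has 704 bases, however, while the authors' locus spans 460 bases and ends before that signal. The 3′ ends of this pair are therefore not contrasted. The Hist1h2bg window at chr13:23571150-23571449 (plus strand) is printed with CCAAT boxes on either strand and TATAAA in capitals, and the Hist1h2ae window covers 279 of its bases on the other strand.
Hist1h2bg: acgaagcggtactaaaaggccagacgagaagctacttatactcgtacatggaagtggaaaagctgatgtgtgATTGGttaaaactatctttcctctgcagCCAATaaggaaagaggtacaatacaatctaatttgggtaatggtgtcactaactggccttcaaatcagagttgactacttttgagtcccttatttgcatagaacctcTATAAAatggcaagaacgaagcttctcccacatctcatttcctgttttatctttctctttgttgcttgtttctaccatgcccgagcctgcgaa

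In the MUT against WT comparison both genes of all 6 pairs had negative log2 fold changes. Hist1h2ae was at -0.52 ± 1.02 in the authors' deposited table (p = 0.25595) and Hist1h2bg at -2.39 ± 1.21 (p = 0.00015). In HET against WT the authors' deposited table gave -0.50 ± 1.08 for Hist1h2ae and -2.20 ± 1.31 for Hist1h2bg. In MUT against WT the absolute difference within a pair had a median of 1.08 and a highest value of 1.86, and these differences were not tested. The errors of the single genes ran from 0.8 (Hist1h2ag) to 3.04 (Hist1h2ad), so the pairs cannot show whether neighbours moved alike. Sequence sharing limits such contrasts. In the median cluster transcript, 48.3% of 50-base windows also occurred in another of the 72 histone genes measured here, and 27 of 61 transcripts shared over 50%. Histone genes that were not listed were left out of this count. It was made on M21 transcripts, and some run far past the authors' loci, such as Hist1h1d with 7425 bases against 744. Longer ends can lower the percentage. The median log2 ratio in MUT against WT was -1.55 for transcripts above 50% shared and -1.59 for those at or under it. Lower values were seen in both, but the second set may hold genes whose measured part is largely shared.

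Genes that act with histones in the cell cycle were read from lists of the same pathway. Of 26 listed S phase genes 24 were in the table, and their median log2 ratio in MUT against WT was 0.08, with 0 of 82 transcripts at an unadjusted p under 0.05. The replicative helicase subunit Mcm2 was at 71.0 FPKM in MUT and 65.8 FPKM in WT, and the sliding clamp Pcna at 234 FPKM in MUT and 257 FPKM in WT. One member stood apart, the flap endonuclease Fen1, at 3.29 FPKM in MUT and 12.2 FPKM in WT, without a transcript at an unadjusted p under 0.05. The 14 mitosis genes had a median of 0.14 with 0 of 43 transcripts at that p, and Mki67 was at 72.4 FPKM in MUT and 64.3 FPKM in WT. Among histone mRNA processing genes (15 past the filter, median -0.01, 0 of 47 transcripts), Slbp, which binds the stem-loop, was at 64.9 FPKM in MUT and 60.9 FPKM in WT. Npat, the coactivator of cluster histone transcription, was at 8.06 FPKM in MUT and 7.46 FPKM in WT. The 23 histone chaperone genes had a median of 0.03 with 0 of 111 transcripts at that p. Chaf1a, a subunit of the replication-coupled chaperone CAF-1, was at 22.9 FPKM in MUT and 23.2 FPKM in WT. These genes were picked for their roles or their values after the values were seen. The medians of the 4 lists stayed between -0.01 and 0.14 in all 3 comparisons.

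Most other listed RNAs without a poly(A) tail had lower values together with the cluster histones. In the list of such stable RNAs (small nuclear, nucleolar and Y RNAs and the RNA parts of nuclear enzymes), 46 genes passed the filter in MUT against WT with a median log2 ratio of -2.45, and 45 lay below 0. They summed to 831 FPKM in MUT and 11500 FPKM in WT. At the q threshold 6 of 46 transcripts fell, against 0.0876% of all transcripts, and 0 were higher. Rn7sk, an RNA that restrains transcription elongation, was at 27.2 FPKM in MUT and 358 FPKM in WT in the authors' deposited table (-3.71 ± 0.52, Cuffdiff q = 0.0388). The RNase P RNA Rpph1 was at 4.90 FPKM in MUT and 65.1 FPKM in WT in the authors' deposited table (-3.73 ± 0.80, q = 0.0388). The Y RNAs Rny1 and Rny3, which held most of the list's sum in WT, were at 111 FPKM in MUT and 2910 FPKM in WT and at 199 FPKM in MUT and 4890 FPKM in WT. The list's median was -0.79 over 57 genes in HET against WT and -1.67 over 41 genes in MUT against HET. Not every member was lower. In MUT against WT the 1 gene above 0 was Snora43, at 7.97 FPKM in MUT and 1.47 FPKM in WT, and telomerase RNA, Terc, was at 2.14 FPKM in MUT and 2.19 FPKM in WT. In HET against WT 11 of the 57 lay above 0, and in MUT against HET 5 of the 41 did. The sources used here do not say whether poly(A) tails were selected. The carry-over of RNA without a tail into the libraries and the amount of cluster histone mRNA in the cells cannot be told apart in these tables.

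**Figure D4:**
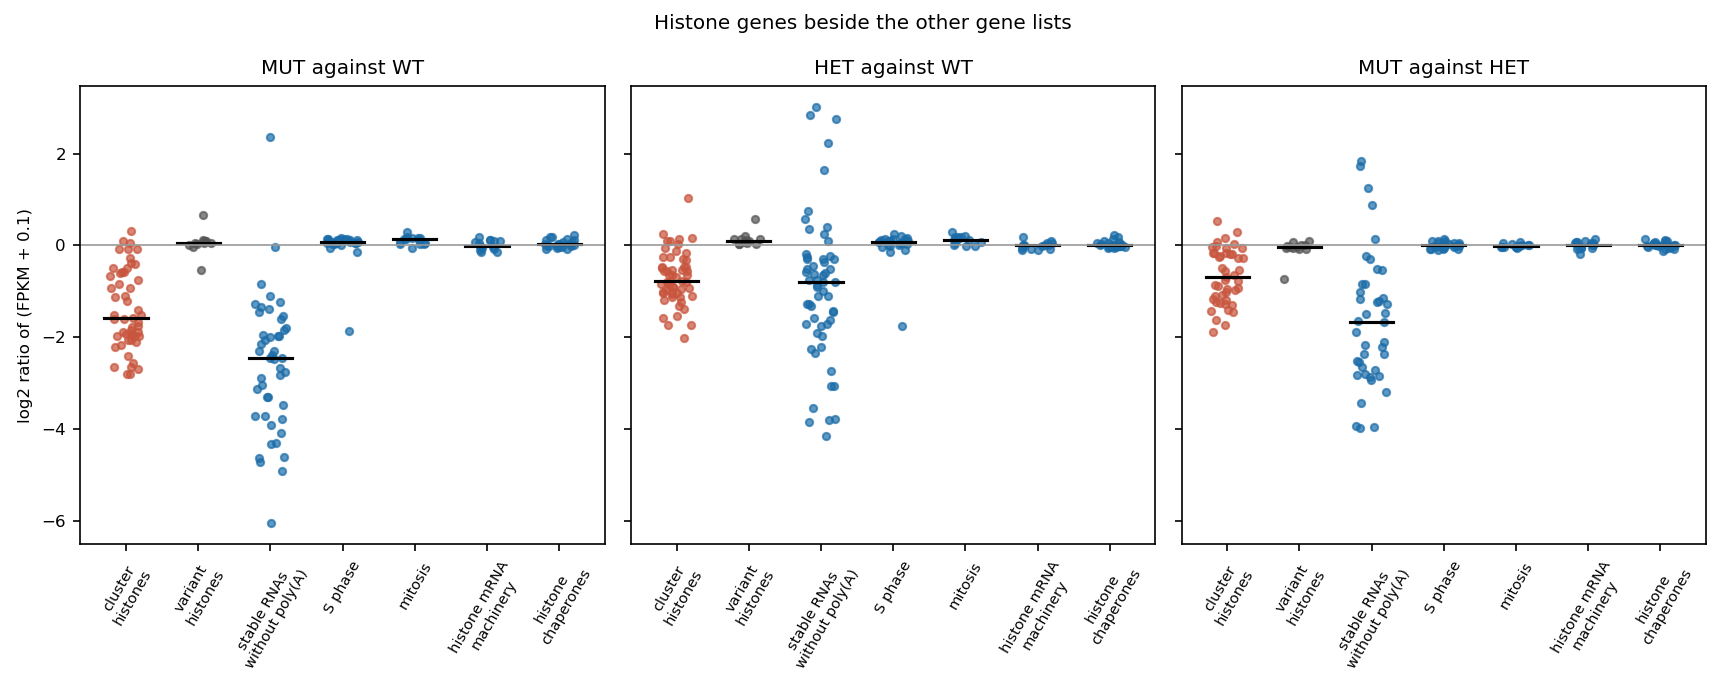
Log2 ratio of (FPKM + 0.1) for cluster histones, variant histones and 5 other gene lists in the 3 comparisons, for genes with a mean of 0.5 FPKM or more, with bars at the medians. Cluster histones (-1.59 in MUT against WT) and stable RNAs without a poly(A) tail (-2.45) lie low, while S phase (0.08) and mitosis (0.14) genes lie near 0.

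Markers of some other cell types also differed. All 10 microglia genes were higher in MUT than in WT, summing to 108 FPKM in MUT and 74.6 FPKM in WT. At an unadjusted Cuffdiff p under 0.05, 5 of 18 transcripts were higher, against 0.368% of all transcripts. In HET against WT all 10 were higher too, with a median log2 ratio of 0.36. The complement gene C1qc, for example, was at 17.1 FPKM in MUT and 10.4 FPKM in WT. The vascular list summed to 135 FPKM in MUT and 118 FPKM in WT over the 3 genes past the filter, and in it Cldn5, a tight junction gene, rose to 19.2 FPKM in MUT against 11.8 FPKM in WT in the authors' deposited table (Cuffdiff q = 0.0388). Blood genes summed to 27.4 FPKM in MUT and 23.8 FPKM in WT over 3 genes, with 0 of 6 transcripts at that unadjusted p. In HET against WT all 3 lay below 0. The part of these cell types in the histone values was not tested. In bulk retina, fewer cells that make cluster histone mRNA and less of it per cell cannot be told apart.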

How the data were processed

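Bulk RNA-seq of 15 retina samples was deposited as 3 transcript-level Cuffdiff tables, 1 for each pair of groups. The submitters' processing notes name Bowtie2, Cufflinks, Cuffdiff and the build mm10 but no versions. Selection of poly(A) RNA, strandedness and annotation release are not stated in the sources used here. The authors computed FPKM per transcript, 1 pooled value for each group, per the file headers. The authors also deposited a log2 fold change, p-values, q-values and a test statistic (a score) per transcript. The p-values cannot be derived from that statistic by a normal approximation. The labels do not tie samples to animals, so p-values reflect only how far these samples scatter, possibly for technical reasons. Depth per sample and spread between samples are unknown, because no values per sample were used.

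Members and gene lists were chosen with earlier results of these data known. Rows were taken by symbol, and FPKM was summed over a gene's transcripts. A transcript was called at the authors' q-value under 0.05. Ratios are log2 of (FPKM + 0.1), MUT over WT, HET over WT or MUT over HET, for genes with a mean of 0.5 FPKM or more, and they understate changes of low genes. The implied standard error is the absolute fold change over the statistic. The deposited fold changes run in the same order. Named genes were all called histone genes, the 3 most abundant cluster genes of each type, variant genes with a mean of 0.5 FPKM or more, Neurog2, and list members with a p-value under 0.05 (at most 4 a list). Other names are said to be chosen after their values were seen or are given as exceptions. Transcript ends came from GENCODE M21, and promoters from RefSeq on GRCm38.p6. Python 3.11.15, numpy 2.4.6, pandas 2.3.3, scipy 1.17.1 and matplotlib 3.10.9 were used, and the scripts were tested on simulated data. No test over a list of genes was run. A result that needs 1 of the retina markers is not reported here.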

Additional observations from a re-analysis of the deposited data

How the results depend on the processing

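No paired analysis was possible because the tables hold 1 pooled value for each group. For the same reason the planned refits without each replicate were not run. In MUT against WT the 12 called histone transcripts, all lower cluster transcripts, became 0 at q under 0.01 (the smallest q is 0.0388). At an unadjusted p under 0.05 they became 36, of which 35 were lower cluster transcripts and 1 was a higher variant transcript. With the correction recomputed over the table the count was 12, and 10 among transcripts with a mean of 1 FPKM or more. Reading the deposited statistic as a normal deviate, chosen after seeing the data, gave 17 unadjusted and 0 after adjustment. In HET against WT the count of 0 became 17 at an unadjusted p under 0.05. In MUT against HET it became 1 at q under 0.10, 24 at an unadjusted p under 0.05 and 2 with the normal reading, unadjusted. Those 24 were 23 lower and 1 higher cluster transcripts. The cluster median of -1.59 in MUT against WT was -0.88 with 1 FPKM added, -1.73 with 0.01 FPKM added and -1.12 over genes with a mean of 2 FPKM or more. In HET against WT, -0.78 became -0.46 with 1 FPKM added and -0.67 at a mean of 2 FPKM or more. In MUT against HET, -0.70 became -0.32 with 1 FPKM added, -0.81 with 0.01 FPKM added and -0.23 at a mean of 2 FPKM or more. Adding 1 FPKM shrinks the ratios of low genes by construction, and the higher minimum keeps fewer genes (21 of 52 in MUT against WT); the cause of the other moves was not tested. None of these medians or named-gene ratios changed sign where a transcript was called. Depth per sample is unknown, and most cluster genes lay below 5 FPKM, where pooled values carry the least reads.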
